A study of Homo sapiens with 17 samples.

Results

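The untreated transcriptomes of 4 monocytic acute myeloid leukaemia (AML) lines that carry a rearranged KMT2A gene were compared with those of 2 CD34-positive lines without the rearrangement. The KMT2A-rearranged group held the control arrays of MV-4-11, MOLM-14, THP-1 and Mono-Mac-1, and the CD34-positive group those of KG-1a and TF-1. These were 6 of the 17 arrays, and the other 11 came from the same lines after 48 h with 1 or 5 uM D9, a 3-deazaneplanocin A analog. MV-4-11 had no 5 uM array, so every fit with the 5 uM arrays lacked that line. Each line had 1 untreated array, so the cell line was the replicate and no line had a repeat. All 6 are established human AML lines, grown in RPMI or IMDM with serum, and the TF-1 medium also held IL-3. By general knowledge of these lines, MV-4-11 carries a fusion of KMT2A with AFF1 and the other rearranged lines one with MLLT3, MV-4-11 and MOLM-14 also carry an internal tandem duplication of FLT3, TF-1 comes from an erythroleukaemia, and KG-1a is an immature subline of KG-1. The labels give the line names but not the rearrangement. All 4 rearranged lines are monocytic and neither CD34-positive line is, so rearrangement and lineage cannot be told apart here. Each group held lines that the study classed as sensitive to D9 (TF-1, MV-4-11 and MOLM-14) and as resistant to it (KG-1a, THP-1 and Mono-Mac-1).

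KMT2A encodes a histone H3 lysine methyltransferase that keeps homeobox genes active in blood progenitors, and its fusion proteins hold such genes, with MEIS1 and FLT3 among them, in an active state. Blood progenitors carry CD34 on their surface and depend on GATA2, TAL1 and related factors, from which GATA1 and GFI1B lead toward red cells and platelets. Monocytes and granulocytes are instead specified by the factors PU.1 (encoded by SPI1), CEBPA and IRF8. Early in granule formation such cells make the azurophil granule, a store of elastase, proteinase 3, azurocidin and cathepsin G. CD14, the receptor for macrophage colony-stimulating factor (CSF1R) and the phagocyte oxidase mark later monocytic stages.

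Levels are log2 of background-corrected, quantile-normalized bead intensity. The lowest level on any array was 5.65, the median 6.23 and the highest 14.89, so a level near 6 is dim. The offset used in background correction understates the fold change of dim genes, and a level of one probe cannot be set against that of another. Differences are the mean of the 4 KMT2A-rearranged lines minus the mean of the 2 CD34-positive lines, ± the standard error of the limma fit. A probe was called at a Benjamini-Hochberg adjusted p under 0.10 over 28394 tested probes. Groups were said not to overlap where all 4 lines of one lay above or below both lines of the other, and the gap was the distance between the nearest lines. Labels do not say that arrays are separate cultures of a group, so p-values measure the spread between these 6 lines. Fewer cells of a state and less RNA per cell cannot be told apart in such bulk samples.

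Median raw signals were 54.5 to 67.4 on the 6 arrays. The lowest signal was 34.3 on TF-1 and 35.4 on THP-1 and 0 on the other 4, so the arrays fell into 2 sets, each with lines of both groups. Pearson correlations over probes were 0.904 to 0.956 between KMT2A-rearranged lines, 0.89 between TF-1 and KG-1a, and 0.842 to 0.91 between lines of different groups.

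In total 177 of 28394 probes were called, or 0.623%, with 84 higher (0.296%) and 93 lower (0.328%) in the KMT2A-rearranged lines. They covered 133 named genes, 69 higher and 64 lower, and at an unadjusted p under 0.05 there were 2850 probes. The groups did not overlap for any of the 177 called probes, which by itself fixes the same direction within both array sets. Absence of overlap alone was far more common, since 3134 probes (11%) lay higher and 2614 (9.21%) lower in every KMT2A-rearranged line. A gap of at least 1 log2 was met by 208 probes (0.733%) in the higher and 173 (0.609%) in the lower direction. Over the 17 arrays of all doses, 175 of the 177 called probes still did not overlap, 11 arrays against 6, as did 6.69% of all tested probes. These arrays come from the same 6 lines and are no further replicates. With the array set as a block 91 probes were called, 36 higher and 55 lower. An exact permutation test of 4 against 2 lines cannot reach a two-sided p below 0.0667.

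The 15 leading higher genes were ELANE, PRTN3, AZU1, CTSG, RNASE2, PPP1R27, IRF8, LAMP5, IRX3, MT1F, KBTBD11, SIRPA, CEBPA, CARD9 and SNRPN, with differences of 3.99 to 7.63. The 15 leading lower genes were ITM2A, CD34, RHAG, GAD1, EPSTI1, CD69, ARHGAP22, LEF1, ITGA2B, ECI2, MTSS1, MLLT11, PLOD2, ESAM and HOXB2, with differences of -6.61 to -3.03.

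**Figure D1:**
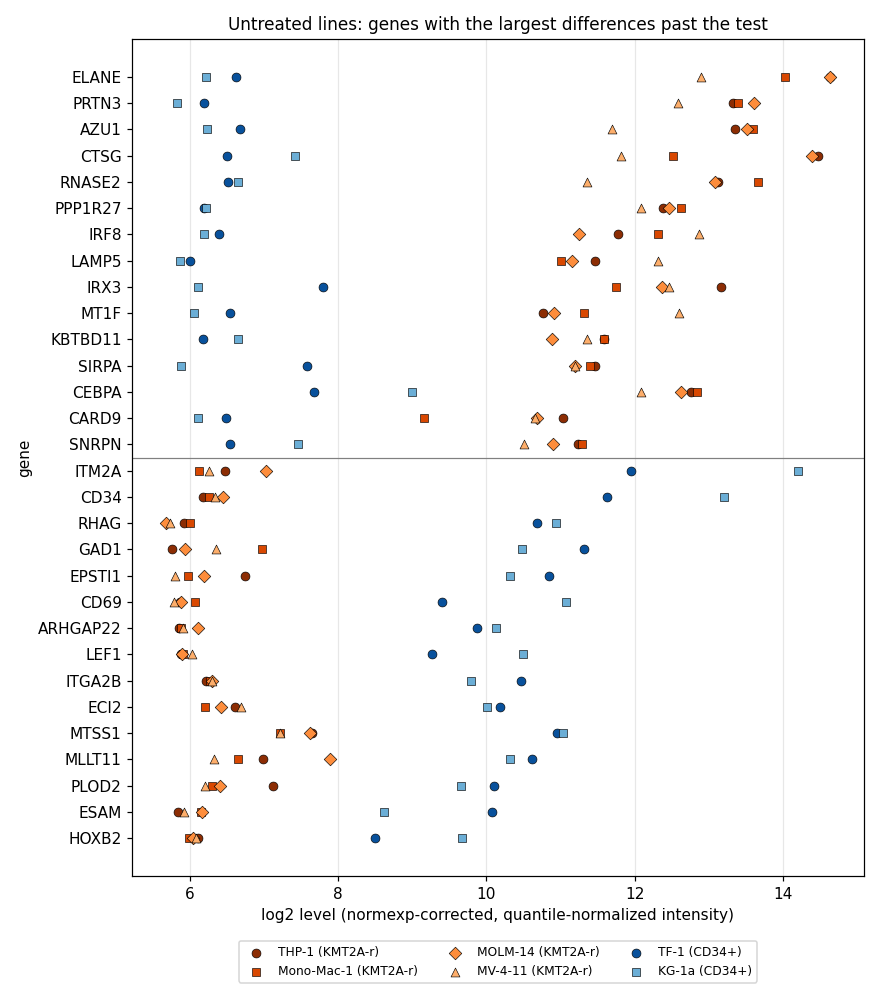
Log2 level (horizontal axis) of the 15 higher and 15 lower genes with the largest differences past the test, 1 point for each untreated line. Orange points are the 4 KMT2A-rearranged lines and blue points the 2 CD34-positive lines, and no gene shows an orange point between the blue ones.

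Genes of granule proteins gave the 5 largest differences in the higher direction among the named genes, led by the azurophil granule genes ELANE and PRTN3. ELANE, which encodes neutrophil elastase, had levels of 14.63 (THP-1), 14.03 (Mono-Mac-1), 14.64 (MOLM-14) and 12.89 (MV-4-11), against 6.62 (TF-1) and 6.21 (KG-1a). PRTN3, which encodes proteinase 3, had levels of 13.33, 13.4, 13.61 and 12.58 against 6.19 and 5.82, in the same order of lines, which is kept throughout. Both genes were thus near the floor of the array in the CD34-positive lines and high in all 4 others. The differences were 7.63 ± 0.54 for ELANE (199-fold on this scale, adjusted p = 0.0111) and 7.23 ± 0.32 for PRTN3 (150-fold, adjusted p = 0.00464). Within the array sets ELANE differed by 8.01 between THP-1 and TF-1 and by 7.65 between the other 3 lines and KG-1a.

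AZU1, which encodes the antimicrobial protein azurocidin, had levels of 13.36, 13.6, 13.51 and 11.7 against 6.67 and 6.23 (6.59 ± 0.59, adjusted p = 0.0262). CTSG, which encodes cathepsin G, had levels of 14.48, 12.52, 14.4 and 11.82 against 6.5 and 7.41 (6.35 ± 0.89, adjusted p = 0.0913). RNASE2, a ribonuclease of eosinophil and myeloid granules, had levels of 13.13, 13.67, 13.08 and 11.36 against 6.51 and 6.64 (6.24 ± 0.64, adjusted p = 0.0379). MV-4-11 was the lowest of the 4 lines for all 5 of these genes, and still stood at least 4.41 above the nearer CD34-positive line. The AZU1 call was lost without THP-1 (adjusted p = 0.129). The RNASE2 call was lost without THP-1 (0.149), Mono-Mac-1 (0.11) or MOLM-14 (0.114), with the array set as a block (0.124) and with the 1 uM arrays (0.103). The CTSG call was lost without THP-1 (0.216), Mono-Mac-1 (0.2), MOLM-14 (0.176), TF-1 (0.179) or KG-1a (0.105), with the block (0.187), with no filter (0.132) and with the 1 uM arrays (0.105).

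Of 24 listed azurophil and specific granule genes, 23 were analysed and 16 passed the filter on dim probes. The filter used the mean over all 17 arrays, 11 of them from KMT2A-rearranged lines. Genes high in that group therefore passed more readily, and genes below the filter could not be called. The 5 genes above were called higher and none was called lower, where 0.474% of all tested genes were called higher and 0.398% lower. The groups did not overlap for 8 members in the higher direction and 1 in the lower, against 10.5% and 8.49% of all analysed genes. Myeloperoxidase (MPO) reached 8.14, 9.96, 9.05 and 6.9 against 6.1 and 6.61, and SRGN, the granule proteoglycan serglycin, 13.32, 13.93, 14.73 and 14.57 against 12.2 and 10.88. Neither passed the test (adjusted p = 0.483 and 0.213). LTF (lactoferrin), of the later specific granules, lay between 6.23 and 6.55 in all 6 lines, and CAMP (cathelicidin) overlapped between the groups, at 6.88, 6.05, 7.3 and 5.85 against 5.9 and 5.75. LCN2 (lipocalin 2) was highest in TF-1, at 6.26, 6.24, 6.31 and 6.29 against 8.88 in TF-1 and 6.17 in KG-1a (-1.26, adjusted p = 0.624).

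AZU1, PRTN3 and ELANE are neighbours on chromosome 19 in the RefSeq gene order, and their surroundings were read after these values were seen. Among 12 protein-coding genes in a row, the called genes were PLPPR3, AZU1, PRTN3 and ELANE, which lie side by side. PLPPR3, a phospholipid phosphatase-related gene, had levels of 8.66, 8.61, 8.88 and 8.75 against 6.32 and 5.78 (2.67 ± 0.186, adjusted p = 0.0111). CFD, the next gene after ELANE, encodes complement factor D and had levels of 12.62, 13.76, 12.85 and 13.53 against 10.48 and 6.9 (4.50 ± 0.993, adjusted p = 0.24). TF-1 thus carried CFD at a higher level than KG-1a, and the groups still did not overlap. On either side of this run, PALM, MISP and PTBP1 before it and MED16, R3HDM4 and KISS1R after it overlapped between the groups, with differences of -0.50 to 0.26. ARID3A, the last of the 12, had a gap of 0.98 and did not pass the test (2.45, adjusted p = 0.317).

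**Figure D2:**
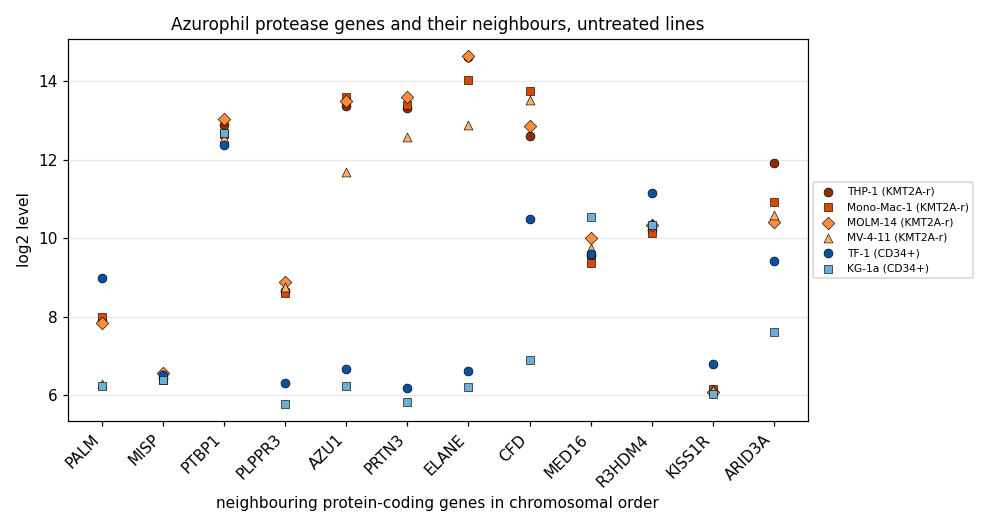
Log2 level (vertical axis) of 12 neighbouring protein-coding genes of chromosome 19 in their order (horizontal axis), 1 point for each untreated line. The orange KMT2A-rearranged lines stand clear of the blue CD34-positive lines from PLPPR3 to CFD, and PTBP1, at 12.37 to 13.03 in all 6 lines, does not separate.

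The promoters of PRTN3, AZU1 and CTSG are shown because these genes share a granule, the first pair share a locus, and all separate the groups. ELANE had no promoter in the set used. Sequences are from RefSeq (GRCh38.p14), from 250 bases before to 50 after the gene's start, 5′ to 3′ along the gene. Capitals mark GAGGAA, the core that PU.1 prefers, and TTNNGCAA, a C/EBP-type site, on either strand.
PRTN3, chr19:840749-841048, plus strand: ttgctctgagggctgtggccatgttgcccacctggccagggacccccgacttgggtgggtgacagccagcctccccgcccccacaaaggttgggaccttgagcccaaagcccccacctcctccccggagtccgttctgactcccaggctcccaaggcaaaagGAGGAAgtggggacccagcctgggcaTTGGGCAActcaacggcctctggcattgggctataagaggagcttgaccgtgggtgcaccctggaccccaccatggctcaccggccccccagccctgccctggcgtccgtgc
AZU1, chr19:827587-827886, plus strand: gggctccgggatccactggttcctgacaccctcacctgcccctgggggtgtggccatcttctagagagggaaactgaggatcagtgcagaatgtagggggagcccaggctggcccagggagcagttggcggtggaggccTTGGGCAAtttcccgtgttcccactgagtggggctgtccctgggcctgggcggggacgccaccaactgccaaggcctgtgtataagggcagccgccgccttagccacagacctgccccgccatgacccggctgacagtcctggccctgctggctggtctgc
CTSG, chr14:24576201-24576500, minus strand: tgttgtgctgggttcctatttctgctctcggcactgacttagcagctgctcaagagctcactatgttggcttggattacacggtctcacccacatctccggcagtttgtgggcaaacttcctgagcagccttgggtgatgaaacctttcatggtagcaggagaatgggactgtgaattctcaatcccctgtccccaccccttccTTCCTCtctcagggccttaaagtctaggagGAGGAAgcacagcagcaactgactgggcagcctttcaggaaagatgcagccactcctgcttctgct
PRTN3 held 1 match of each kind, AZU1 1 match to TTNNGCAA and CTSG 2 matches to GAGGAA. Of promoters read but not shown, that of RNASE2 held 1 match to TTNNGCAA, and those of IRF8 and CEBPA held none of either kind. Of the 69 called higher genes 54 had a promoter in the table, and TTNNGCAA was found in 13 of them (24.1%), in 5 of 50 promoters of called lower genes (10%) and in 10.6% of 27305 promoters. GAGGAA was found in 25.9%, 32% and 27.6% of the same sets. These are letter matches in a short window, given as a description with no test.

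Of 26 listed myeloid transcription factors 24 were analysed and all 24 passed the filter, and 15 were higher in every KMT2A-rearranged line and none lower, with 5 called higher. Over all analysed genes 10.5% were higher in every rearranged line and 8.49% lower. Calls in this and later lists are read against 0.474% of all tested genes higher and 0.398% lower. The median difference of the list was 1.1, against 0.01 over all genes. IRF8, an interferon regulatory factor needed for monocyte formation, had levels of 11.78, 12.32, 11.25 and 12.87 against 6.39 and 6.19 (5.77 ± 0.45, 54.5-fold, adjusted p = 0.0158). CEBPA, the leading factor of granulocyte and monocyte commitment, had levels of 12.76, 12.84, 12.63 and 12.08 against 7.67 and 9.0 (4.24 ± 0.42, adjusted p = 0.0345). Both CD34-positive lines lay below all 4 rearranged lines for each gene, by at least 4.86 for IRF8 and 3.07 for CEBPA.

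CEBPD, a C/EBP factor of inflammatory responses, had levels of 10.23, 10.3, 11.25 and 10.23 against 7.61 and 6.73 (3.33 ± 0.4, adjusted p = 0.0631). GFI1, a repressor in granulocyte formation, had levels of 10.66, 10.71, 10.05 and 10.84 against 7.47 and 8.51 (2.57 ± 0.36, adjusted p = 0.092). HCLS1, a cortactin-related protein of blood cells that was listed with them, differed by 0.81 (adjusted p = 0.0943) with a gap of 0.75, and its call was lost without any 1 of THP-1 (0.23), Mono-Mac-1 (0.236), MOLM-14 (0.196), MV-4-11 (0.171), TF-1 (0.157) or KG-1a (0.129). It was also lost with the block (0.194), the deposited log2 values (0.171), median scaling (0.191), an offset of 16 (0.194), the filter at the 60th percentile (0.228) and the 5 uM arrays (0.127). The call of IRF8 held in all 17 alternative fits. That of CEBPA was lost without THP-1 (0.147), Mono-Mac-1 (0.132) or MOLM-14 (0.105), with the block (0.11), with the 5 uM arrays (0.19) and with the mean of every array (0.102). That of CEBPD was lost without THP-1 (0.185), Mono-Mac-1 (0.174) or MV-4-11 (0.136) and with the block (0.161). That of GFI1 was lost in 11 of the 17 fits, among them those without THP-1 (0.26), Mono-Mac-1 (0.233), MOLM-14 (0.12), MV-4-11 (0.185) and TF-1 (0.11), and with the block (0.189).

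SPI1, which encodes PU.1, had levels of 10.81, 10.21, 11.67 and 10.79 in the KMT2A-rearranged lines, 8.92 in TF-1 and 6.4 in KG-1a. The groups did not overlap, with a gap of 1.3, but TF-1 stood 2.52 above KG-1a and the test was not passed (3.21 ± 0.76, adjusted p = 0.275). KLF4, a Kruppel-like factor of monocytes, had levels of 7.61, 8.24, 7.69 and 6.52 against 5.83 and 5.86 (adjusted p = 0.339). CEBPB and MEF2C overlapped, with differences of 0.03 and -0.11.

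Of 28 listed monocyte surface receptors 27 were analysed and 22 tested. In every KMT2A-rearranged line 14 were higher and 1 lower, against 10.5% and 8.49% of all analysed genes. The test called 4 higher, with a list median of 1.2. SIRPA, the receptor for CD47 on phagocytes, had levels of 11.46, 11.4, 11.19 and 11.2 against 7.58 and 5.88 (4.58 ± 0.46, adjusted p = 0.0351). CD1D, which presents lipids, had levels of 8.99, 8.74, 8.63 and 8.96 against 6.04 and 5.88 (2.87 ± 0.15, adjusted p = 0.00634). CD300LF, a lipid-sensing receptor of myeloid cells, had levels of 8.76, 8.47, 8.84 and 8.95 against 6.24 and 5.84 (2.72 ± 0.19, adjusted p = 0.0111). By these probes the 4 rearranged lines lay within 0.48 of each other for each of these 3 receptors. A second SIRPA probe, not followed further, spread more widely, at 8.54, 8.56, 7.73 and 8.22 against 6.15 and 5.9 (2.23, adjusted p = 0.0631).

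CSF1R, the receptor that monocytes need to survive and mature, had levels of 8.67, 8.18, 8.55 and 9.35 against 6.49 and 6.14 (2.38 ± 0.34, adjusted p = 0.0943). The call of SIRPA was lost without THP-1 (0.147), Mono-Mac-1 (0.136) or MOLM-14 (0.104), and that of CSF1R without THP-1 (0.26), Mono-Mac-1 (0.139), MOLM-14 (0.205), TF-1 (0.132) or KG-1a (0.149), with the block (0.197), with no filter (0.132) and with median scaling (0.106). The high-affinity Fc receptor FCGR1A and the chemokine receptor CCR2 had gaps of 2.11 and 2.08 and did not pass the test (adjusted p = 0.196 and 0.181). Of 10 CCR2 probes only 2 behaved in this way while 6 others failed the filter. A probe of the related FCGR1BP, outside the list, was called higher (2.56, adjusted p = 0.0949).

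CD14, the co-receptor for lipopolysaccharide by which monocytes are recognised, did not mark the group as a whole. MOLM-14 stood at 11.4 and THP-1 at 8.06, while Mono-Mac-1 (6.45) and MV-4-11 (6.49) lay beside TF-1 (6.43) and KG-1a (6.33). The gap between the groups was therefore 0.02, far below the spread within the rearranged lines. CYBB, the oxidase subunit of mature phagocytes, followed a like order, at 8.78, 6.23, 10.15 and 6.32 against 6.26 and 6.22. MOLM-14 was the highest of the 6 lines for both genes. ITGAM, an integrin subunit of myeloid cells, was instead highest in TF-1, at 7.51, 7.77, 7.91 and 6.26 against 9.99 and 6.25.

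Among pattern recognition and chemotactic receptors 32 of 33 listed genes were analysed and 25 tested. In every KMT2A-rearranged line 10 were higher and none lower, against 10.5% and 8.49% of all analysed genes. LILRA2, an activating immunoglobulin-like receptor, was the one call, at 8.94, 8.75, 8.74 and 8.39 against 5.86 and 5.86 (2.84 ± 0.18, adjusted p = 0.00828). NOD2, a sensor of bacterial wall fragments, had levels of 7.85, 7.98, 9.35 and 7.45 against 5.99 and 6.06 (adjusted p = 0.299). The Toll-like receptors TLR2 and TLR4 did not exceed 7.41 in any line. LILRA2 belongs to a family of near-identical genes, whose members a probe may not tell apart.

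The genes of monocyte granules, lysosomes and secretion were all tested, 30 of 30, and none was called. The groups did not overlap for 11 in the higher direction and 1 in the lower, against 10.5% and 8.49% of all analysed genes. LYZ, which encodes lysozyme, had levels of 9.84, 11.5, 13.17 and 14.1 against 8.93 and 6.03. The 4 lines thus spanned 4.26 log2, and the difference of 4.67 ± 1.41 did not pass the test (adjusted p = 0.371). The calgranulin S100A8 ranged from 7.28 in MV-4-11 to 11.81 in MOLM-14 against 6.35 and 6.4 (adjusted p = 0.498). ANXA1, the anti-inflammatory annexin A1, was the member that lay lower, at 8.68, 9.88, 10.24 and 8.5 against 11.05 and 11.97 (adjusted p = 0.333). None of the 5 analysed oxidase genes was called. The NCF1 probe can also bind copies of that gene, and a probe of the copy NCF1C, outside the list, was called higher (2.25, adjusted p = 0.0631).

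Among 15 inflammasome and pyroptosis genes, 13 tested, NLRP3 was called higher, at 10.3, 10.3, 9.13 and 9.9 against 6.31 and 7.28 (3.11 ± 0.44, adjusted p = 0.094). NLRP3 is the sensor of the best-known inflammasome. A second NLRP3 probe was called (2.82, adjusted p = 0.0901) and the remaining probe was not (1.16, 0.45). The call was lost without THP-1 (0.246), Mono-Mac-1 (0.226), MV-4-11 (0.188) or TF-1 (0.158), with the block (0.208), with median scaling (0.126), with no filter (0.132) and with the 5 uM arrays (0.157). IL1B, the cytokine that such complexes process, lay the other way, at 6.27, 6.07, 7.0 and 6.77 against 12.26 in TF-1 and 8.82 in KG-1a (-4.01 ± 0.94, adjusted p = 0.266). TF-1 and KG-1a differed by 3.44 for IL1B.

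Cytokine receptors differed gene by gene. Of 30 listed genes 29 were analysed and 27 tested, and 3 were called higher and none lower. The groups did not overlap for 10 in the higher and 2 in the lower direction. Over all analysed genes it was 10.5% and 8.49%, so the lower count was near its share. CXCR4, the receptor by which leukaemic cells home to marrow, had levels of 8.66, 8.85, 9.1 and 8.99 against 5.86 and 5.75 (3.09 ± 0.16, adjusted p = 0.00634). Its other probes gave differences of 1.83 (adjusted p = 0.514) and -0.06 (0.913), so the call rests on 1 of 3 probes. IL17RA, the interleukin 17 receptor subunit, had levels of 9.5, 8.57, 8.93 and 8.77 against 6.51 and 6.46 (2.46 ± 0.27, adjusted p = 0.0473), and this call was lost without Mono-Mac-1 (0.103), MOLM-14 (0.137) or MV-4-11 (0.114). CSF1R, described with the monocyte receptors, was the third. The receptor for granulocyte colony-stimulating factor, CSF3R, had a gap of 1.41 (3.26 ± 0.73, adjusted p = 0.245).

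FLT3, the kinase receptor of early progenitors, had levels of 7.66, 10.76, 9.8 and 10.28 against 6.01 and 5.96. THP-1 was the lowest of the rearranged lines, and the difference of 3.64 ± 0.87 did not pass the test (adjusted p = 0.279). KIT, the stem cell factor receptor, overlapped, at 6.13, 6.2, 6.19 and 7.46 against 8.5 in TF-1 and 6.36 in KG-1a. Of the chemokines and cytokines none of 22 tested was called. Of 26 analysed the groups did not overlap for 6 in the higher and 5 in the lower direction, against 10.5% and 8.49% of all genes. CCL5 had levels of 11.57, 12.11, 12.37 and 9.18 against 7.86 and 7.21 (adjusted p = 0.299), and TNF 9.8, 7.71, 8.48 and 8.15 against 5.99 and 5.88 (adjusted p = 0.245). TNFSF10, the death ligand TRAIL, lay the other way, at 6.58, 7.09, 7.96 and 6.71 against 8.65 and 10.0 (adjusted p = 0.277), as did IL1B.

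Genes linked to KMT2A fusions were examined next. Of 16 listed genes outside the HOX clusters 15 were analysed and 13 tested. In every KMT2A-rearranged line 7 were higher and 1 lower, against 10.5% and 8.49% of all analysed genes. The test called 2 higher, and the list median was 1.37. LAMP5, a lysosome-associated membrane protein, had levels of 11.46, 11.0, 11.16 and 12.31 against 6.0 and 5.86 (5.55 ± 0.39, 46.9-fold, adjusted p = 0.0111). PBX3, a homeobox cofactor of MEIS1 and HOX proteins, had levels of 11.37, 11.05, 11.32 and 10.88 against 8.53 and 9.19 (2.3 ± 0.25, adjusted p = 0.0422). The LAMP5 call held in all 17 alternative fits, and that of PBX3 was lost without THP-1 (0.147), Mono-Mac-1 (0.141) or MOLM-14 (0.118) and with the block (0.133).

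MEIS1, the best-known partner of HOXA9 in these leukaemias, did not separate the groups. Its levels were 6.68, 9.04, 9.08 and 9.75 against 6.72 and 6.4. THP-1 therefore lay at the level of TF-1. JMJD1C and MYB were higher in every rearranged line by small gaps of 0.6 and 0.35 (adjusted p = 0.196 and 0.327), and CDK6 overlapped. Of the HOXA genes HOXA2 alone was measured, at 6.33 to 7.31 in all 6 lines, and HOXA9 and HOXA10 were not analysed here. In the HOXB cluster, with 10 of 10 genes analysed and 6 tested, HOXB2 was lower, at 6.1, 5.99, 6.04 and 6.08 against 8.5 and 9.67 (-3.03 ± 0.32, adjusted p = 0.0414). The HOXB2 call was lost without any 1 of THP-1 (0.154), Mono-Mac-1 (0.148), MOLM-14 (0.122) or MV-4-11 (0.115), while HOXB3, HOXB4 and HOXB5 overlapped.

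Other leading higher genes belong to no fixed lineage list. PPP1R27, a regulatory subunit of protein phosphatase 1, had levels of 12.38, 12.63, 12.46 and 12.08 against 6.19 and 6.21 (6.19 ± 0.18, 72.9-fold, adjusted p = 0.00127). The second PPP1R27 probe gave 5.89 (adjusted p = 0.00127), and the 4 rearranged lines lay within 0.55 of each other. IRX3, an Iroquois homeobox factor, had levels of 13.17, 11.75, 12.37 and 12.46 against 7.79 and 6.1 (5.5 ± 0.58, adjusted p = 0.0414). KBTBD11, a Kelch and BTB domain protein, had levels of 11.59, 11.58, 10.89 and 11.35 against 6.18 and 6.64 (4.94 ± 0.26, adjusted p = 0.00634). The calls of PPP1R27 and KBTBD11 held in all 17 alternative fits, and that of IRX3 was lost without THP-1 (0.136), Mono-Mac-1 (0.106), MOLM-14 (0.12) or MV-4-11 (0.115).

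CARD9, the adaptor of fungal-sensing lectin receptors, had levels of 11.03, 9.16, 10.68 and 10.66 against 6.48 and 6.11 (4.08 ± 0.54, adjusted p = 0.0817). MT1F, a metallothionein that binds zinc and copper, had levels of 10.76, 11.31, 10.91 and 12.6 against 6.54 and 6.05 (5.1 ± 0.55, adjusted p = 0.0441), and its near-identical family members may share the probe. SNRPN, an imprinted splicing factor gene, had levels of 11.24, 11.29, 10.9 and 10.51 against 6.54 and 7.45 (3.99 ± 0.34, adjusted p = 0.0227). Its 2 other tested probes gave 2.18 and 2.78 and did not pass the test (adjusted p = 0.259 and 0.156). The SNRPN call was lost without THP-1 (0.112), that of MT1F without THP-1 (0.131), Mono-Mac-1 (0.15) or MOLM-14 (0.102) and with the block (0.135), and that of CARD9 without THP-1 (0.207), MOLM-14 (0.194), MV-4-11 (0.173), TF-1 (0.129) or KG-1a (0.129), with the block (0.143), with no filter (0.121) and with the 5 uM arrays (0.16).

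In the other direction, CD34 separated the groups as the choice of lines implies. The sialomucin had levels of 6.17, 6.25, 6.44 and 6.33 against 11.63 in TF-1 and 13.2 in KG-1a (-6.11 ± 0.42, adjusted p = 0.0111). A second probe gave -5.95 (adjusted p = 0.0127), the remaining tested probe -0.23 (0.674), and 2 more were below the filter. The call was lost with the 5 uM arrays (0.115). Of 22 listed stem and progenitor surface and secreted genes 20 were analysed and 19 tested. In every KMT2A-rearranged line 7 were lower and 1 higher, against 8.49% and 10.5% of all analysed genes. The test called 3 lower and 1 higher. The lines were chosen for CD34, and without it 6 of 19 were lower in every rearranged line and 2 were called lower.

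ADGRG1, an adhesion receptor (GPR56) of stem cells, had levels of 6.05, 6.09, 6.18 and 6.07 against 8.79 and 9.02 (-2.81 ± 0.12, adjusted p = 0.00464), and its second tested probe gave -2.99 (0.00711). ESAM, an adhesion molecule of endothelium and stem cells, had levels of 5.84, 6.15, 6.16 and 5.92 against 10.07 and 8.62 (-3.33 ± 0.4, adjusted p = 0.0631). The ADGRG1 call held in all 17 alternative fits. That of ESAM was lost without THP-1 (0.204), Mono-Mac-1 (0.18), MOLM-14 (0.159) or MV-4-11 (0.149), with the block (0.145) and with the 5 uM arrays (0.113). CRIP1, a cysteine-rich LIM protein, was the member that lay higher, at 9.68, 10.2, 11.13 and 10.14 against 6.29 and 6.38 (3.95 ± 0.4, adjusted p = 0.0361), a call lost without Mono-Mac-1 (0.136) and with the 5 uM arrays (0.163).

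The list of a published stemness score of AML, known as the 17-gene score, shares CD34, ADGRG1 and MMRN1 with the list above. Of its 17 genes 16 were analysed and tested. In every KMT2A-rearranged line 9 were lower and none higher, against 8.49% and 10.5% of all analysed genes. The test called 3 lower, with a list median of -2.17. Without CD34, 8 of 15 were lower in every rearranged line, with 2 calls and a median of -1.97. The call beyond CD34 and ADGRG1 was ARHGAP22, at 5.85, 5.88, 6.1 and 5.9 against 9.87 and 10.13 (-4.07 ± 0.14, adjusted p = 0.00186), a call lost with the 5 uM arrays (0.119). CPXM1 and NYNRIN had gaps of -1.35 and -1.21 without passing the test (adjusted p = 0.208 and 0.22). DNMT3B, a DNA methyltransferase, had levels of 8.08, 8.37, 7.84 and 7.31 against 9.13 and 10.6 (adjusted p = 0.291). CDK6 and SOCS2, both in the score, overlapped.

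Of 20 stem and progenitor transcription factors, 19 tested, none was called. The groups did not overlap for 5 in the lower and 2 in the higher direction. Over all analysed genes it was 8.49% and 10.5%, so the higher count was near its share. GATA2, a factor of stem cells, had levels of 7.14, 6.88, 7.36 and 6.03 against 11.38 in TF-1 and 8.64 in KG-1a (-3.16 ± 0.8, adjusted p = 0.305). MYCN had levels of 6.13, 6.08, 6.12 and 6.0 against 7.49 and 9.98 (-2.65 ± 0.65, adjusted p = 0.289). TF-1 was the higher line for GATA2 and KG-1a for MYCN. LMO2, LYL1, SOX4 and BCL11A overlapped between the groups.

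Erythroid genes split into a few that both CD34-positive lines carried and many carried by TF-1 alone. RHAG, the Rh-associated glycoprotein of the red cell membrane, had levels of 5.92, 6.0, 5.67 and 5.73 against 10.68 in TF-1 and 10.94 in KG-1a (-4.98 ± 0.15, 31.5-fold, adjusted p = 0.00135). GFI1B, a repressor in red cell and platelet formation, had levels of 6.2, 6.12, 6.26 and 6.25 against 8.11 and 8.44 (-2.07 ± 0.14, adjusted p = 0.011). Both genes lay within 0.33 of each other in TF-1 and KG-1a, and both calls held in all 17 alternative fits. They were the 2 calls among 12 erythroid factors and receptors, 13 haem synthesis and iron genes, 11 globin genes and 20 red cell membrane genes that were analysed.

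The fetal globin HBG1, by contrast, stood at 14.59 in TF-1 and at 5.95 in KG-1a, against 5.89 to 6.09 in the 4 other lines. GATA1 stood at 8.59 in TF-1 and 6.05 in KG-1a, against 6.03 to 6.19. KLF1, a globin activator, stood at 8.67 in TF-1 and 6.2 in KG-1a, against 6.13 to 6.23. In 9 of 10 tested globin genes TF-1 exceeded KG-1a by at least 3 log2, so KG-1a was at the level of the monocytic lines. The median difference of the tested globins was -2.79 with both lines and 0.03 without TF-1, and that of the tested red cell membrane genes -1.0 and 0.04. The HBG1 and HBG2 probes, like those of HBA1 and HBA2, may each bind both copies.

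ITGA2B, the platelet integrin subunit, had levels of 6.22, 6.27, 6.29 and 6.3 against 10.47 and 9.79 (-3.86 ± 0.2, 14.5-fold, adjusted p = 0.00634), a call that held in all 17 alternative fits. Its partner ITGB3 had levels of 6.14, 6.04, 6.23 and 6.02 against 7.29 and 6.8 (-0.94 ± 0.17, adjusted p = 0.174). Of 22 listed megakaryocyte and platelet genes 20 were analysed and 15 tested, with 1 called lower and none higher. PF4 and PPBP, secreted by platelets, lay between 5.95 and 6.83 in all lines. Other platelet genes were higher in TF-1 than in KG-1a, such as GP1BA (9.35 and 7.34) and PEAR1 (8.43 and 5.96), and overlapped between the groups.

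The promoters of CD34 and RHAG are shown as those of a gene that defined the group and of the red cell gene that both its lines shared. Capitals mark GAGGAA and, as a GATA-type site, AGATAA or TGATAA on either strand.
CD34, chr1:207911076-207911375, minus strand: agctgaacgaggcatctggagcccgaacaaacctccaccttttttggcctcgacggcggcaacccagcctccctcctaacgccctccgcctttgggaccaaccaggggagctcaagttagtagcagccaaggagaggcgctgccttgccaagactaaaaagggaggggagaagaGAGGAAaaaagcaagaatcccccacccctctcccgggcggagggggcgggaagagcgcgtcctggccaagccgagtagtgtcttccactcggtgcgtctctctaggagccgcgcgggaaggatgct
RHAG, chr6:49636790-49637089, minus strand: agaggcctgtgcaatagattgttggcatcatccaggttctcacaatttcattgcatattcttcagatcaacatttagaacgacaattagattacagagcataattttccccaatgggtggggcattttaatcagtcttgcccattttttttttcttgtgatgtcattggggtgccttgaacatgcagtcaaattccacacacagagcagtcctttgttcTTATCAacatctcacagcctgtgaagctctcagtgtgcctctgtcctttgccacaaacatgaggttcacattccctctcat
CD34 held 1 match to GAGGAA, and RHAG 1 match to the GATA-type letters on the opposite strand. Of promoters read but not shown, those of ITGA2B and ADGRG1 held neither kind. Both GFI1B promoters held GAGGAA, and 1 of them the GATA-type letters. Such GATA-type letters were found in 7 of 50 promoters of called lower genes (14%), in 2 of 54 of called higher genes (3.7%) and in 16.6% of all promoters, again given without a test.

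Several lymphoid genes were highest in KG-1a. CD3D, a subunit of the T cell receptor complex, stood at 12.73 in KG-1a and 6.48 in TF-1, against 5.87 to 6.21 in the 4 rearranged lines. CD7 stood at 10.67 in KG-1a and 6.47 in TF-1, and the protease gene GZMA at 9.77 and 5.92. The signalling genes CD247 and ZAP70 stood at 8.03 and 8.37 in KG-1a and 6.75 and 6.13 in TF-1, while CD3E, CD3G and BCL11B, all below the filter, did not exceed 6.29 in any line. LEF1, a Wnt pathway factor of lymphocytes and progenitors, was the call of the T cell list, with 20 analysed and 13 tested. By the probe with the largest difference its levels were 5.88, 5.91, 5.89 and 6.02 against 9.27 and 10.49 (-3.95 ± 0.33, adjusted p = 0.0208), and a second probe gave -3.32 (0.0262). Both were lost without THP-1 (0.117 and 0.129) and the second also without Mono-Mac-1 (0.11).

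PRF1, which encodes perforin, was the call of the 19 NK and cytotoxic genes, 13 of them tested, at 6.05, 6.18, 6.14 and 6.19 against 7.49 and 7.65 (-1.43, adjusted p = 0.0168), a call lost with the 5 uM arrays (0.184). NKG7 overlapped, with MOLM-14 at 11.93 and KG-1a at 10.86. None of 8 tested B cell genes was called. The 4 PTPRC probes, for the leukocyte antigen CD45, lay between 5.81 and 6.42 in all 6 lines and say nothing of the groups.

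Among the leading lower genes outside the lists, ITM2A, an integral membrane protein, had levels of 6.47, 6.12, 7.02 and 6.25 against 11.95 in TF-1 and 14.2 in KG-1a (-6.61 ± 0.64, adjusted p = 0.0333). GAD1, the enzyme that makes the transmitter GABA, had levels of 5.76, 6.97, 5.93 and 6.35 against 11.32 and 10.48 (-4.65 ± 0.42, adjusted p = 0.0262), and its 2 other probes were called too (-3.59 and -4.25). EPSTI1, an interferon-induced gene, had levels of 6.74, 5.97, 6.19 and 5.79 against 10.85 and 10.32 (-4.41 ± 0.31, adjusted p = 0.0111). The ITM2A call was lost without THP-1 (0.145) or Mono-Mac-1 (0.128), that of the GAD1 probe without THP-1 (0.101), and that of EPSTI1 in none of the 17 fits. A second ITM2A probe gave -4.42 (adjusted p = 0.144).

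CD69, an early activation antigen of leukocytes, had levels of 5.87, 6.06, 5.88 and 5.78 against 9.4 and 11.07 (-4.34 ± 0.45, adjusted p = 0.039). MTSS1, an actin and membrane scaffold, had levels of 7.65, 7.21, 7.62 and 7.21 against 10.95 and 11.03 (-3.57 ± 0.19, adjusted p = 0.00634). ECI2, an isomerase of fatty acid oxidation, had levels of 6.61, 6.2, 6.42 and 6.69 against 10.18 and 10.01 (-3.62 ± 0.18, adjusted p = 0.0062). The calls of MTSS1 and ECI2 held in all 17 alternative fits, and that of CD69 was lost without THP-1 (0.152), Mono-Mac-1 (0.139), MOLM-14 (0.118) or MV-4-11 (0.114). A second tested probe of ECI2 gave -4.23 (adjusted p = 0.115) and one of CD69 -2.20 (0.208), and neither was called. MLLT11 and the collagen lysyl hydroxylase PLOD2 differed by -3.51 (adjusted p = 0.0745) and -3.37 (0.0273). The MLLT11 call was lost without THP-1 (0.224), Mono-Mac-1 (0.205), MV-4-11 (0.121) or TF-1 (0.142), with the block (0.182) and with no filter (0.108), and that of PLOD2 without Mono-Mac-1 (0.11).

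None of the genes that respond to cytokines through STAT5 was called. All 18 were tested, and the list median was -0.9. In every KMT2A-rearranged line 8 were lower and none higher, against 8.49% and 10.5% of all analysed genes. OSM (oncostatin M) had levels of 6.17, 6.36, 6.68 and 7.08 against 8.27 and 9.05 (-2.08, adjusted p = 0.129), and SOCS3, a feedback inhibitor of cytokine receptors, 6.22, 6.31, 6.14 and 6.39 against 8.03 and 7.23 (-1.37, adjusted p = 0.155). PIM1, a survival kinase, had levels of 7.18, 9.34, 6.83 and 9.9 against 12.04 and 11.1 (adjusted p = 0.382). A second SOCS3 probe overlapped between the groups (-0.24, adjusted p = 0.641). The medium of TF-1 held IL-3, whose part in these values was not tested.

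The 2 comparison lists moved little. The median differences were 0 for 20 S phase and replication genes and -0.18 for 13 housekeeping genes, with none called, and in each list the groups did not overlap for 1 member in either direction. ACTB had levels of 14.66, 14.31, 14.68 and 14.48 against 13.51 and 14.31. No major histocompatibility class II gene separated the groups, and TF-1 exceeded KG-1a by at least 3 log2 for 5 of 11. By 1 probe HLA-DRA stood at 12.72 in TF-1 and 7.98 in KG-1a, with 9.21 to 10.63 in the rearranged lines. A second HLA-DRA probe read 13.11 and 6.8, with 10.66, 6.61, 11.57 and 9.99 in the rearranged lines. The list median moved from -0.18 to 1.21 without TF-1.

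The remaining lists gave few calls, and their counts are read against 10.5% of all analysed genes in the higher and 8.49% in the lower direction. Of 24 integrin and leukocyte adhesion genes, all tested, ITGA2B was the one call, with 2 members higher and 3 lower in every rearranged line. Of 16 mast cell, basophil and eosinophil genes, 15 of them tested, RNASE2 was the one call, with 1 member higher and 3 lower. In the lower direction the groups did not overlap for 4 of 12 erythroid factors, 1 of 11 globin genes, 3 of 13 haem genes, 5 of 20 red cell membrane genes, 4 of 20 T cell genes, 4 of 19 NK genes and 1 of 17 B cell genes. In the higher direction it was 1 erythroid factor, 1 red cell gene, 2 T cell genes and 1 B cell gene, with 2 of 5 oxidase genes.

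**Figure D3:**
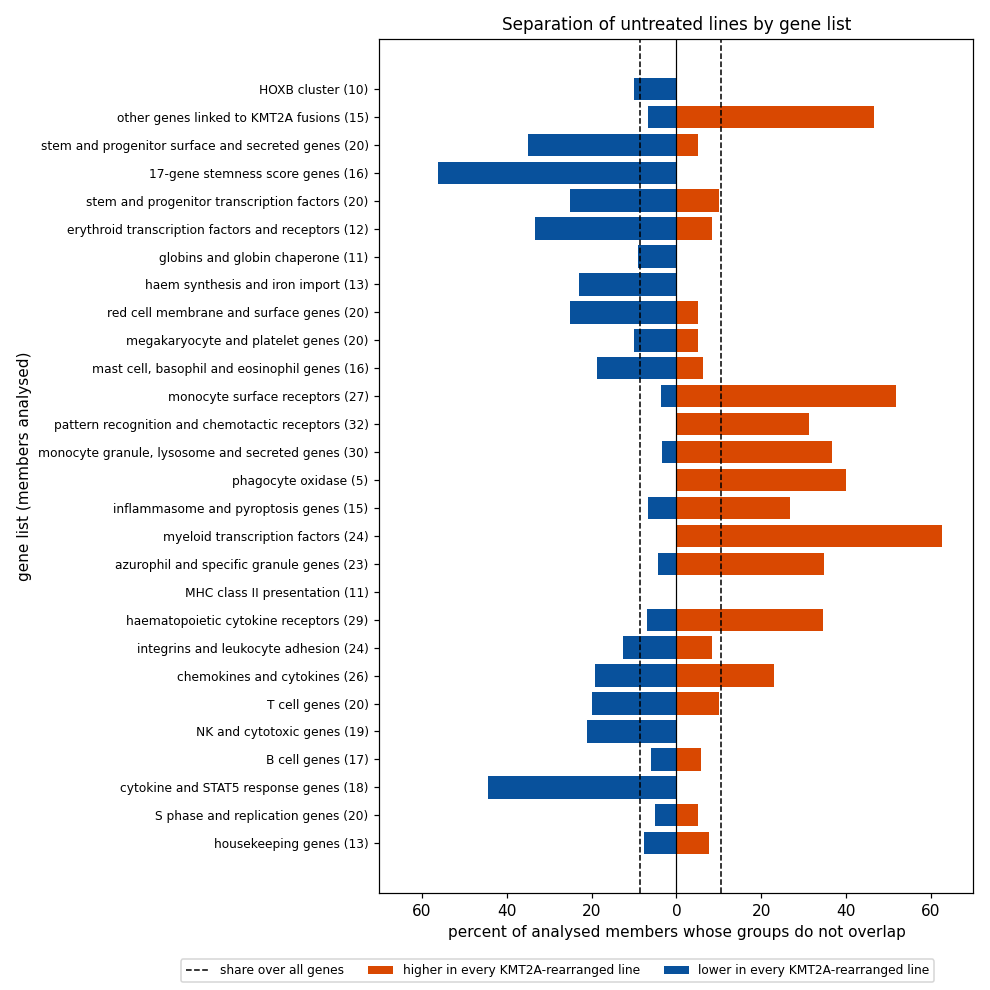
Percent of the analysed members of each gene list whose groups do not overlap (horizontal axis), higher (right, orange) or lower (left, blue) in every KMT2A-rearranged line, with the number analysed in brackets. Dashed lines mark the shares over all genes, 10.5% and 8.49%, and 15 of 24 myeloid transcription factors and 9 of 16 stemness score genes, CD34 among them, lie beyond them in opposite directions.

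The lines of a group also differed from each other. TF-1 and KG-1a lay at least 3 log2 apart for 361 tested probes, 240 of them higher in TF-1 and 121 higher in KG-1a (1.27% together). The 4 KMT2A-rearranged lines spanned at least 3 log2 for 374 probes (1.32%). Among 30 tested monocyte granule, lysosome and secreted genes the rearranged lines spanned this much for 11, while it was 3 of 16 tested azurophil and specific granule genes and 2 of 24 myeloid factors. TGFBI, a matrix protein of monocytes, ranged from 6.22 in Mono-Mac-1 to 11.1 in THP-1, and the tryptase gene TPSAB1 stood at 13.34 in MOLM-14 and at most 6.09 in the other 3 rearranged lines.

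**Figure D4:**
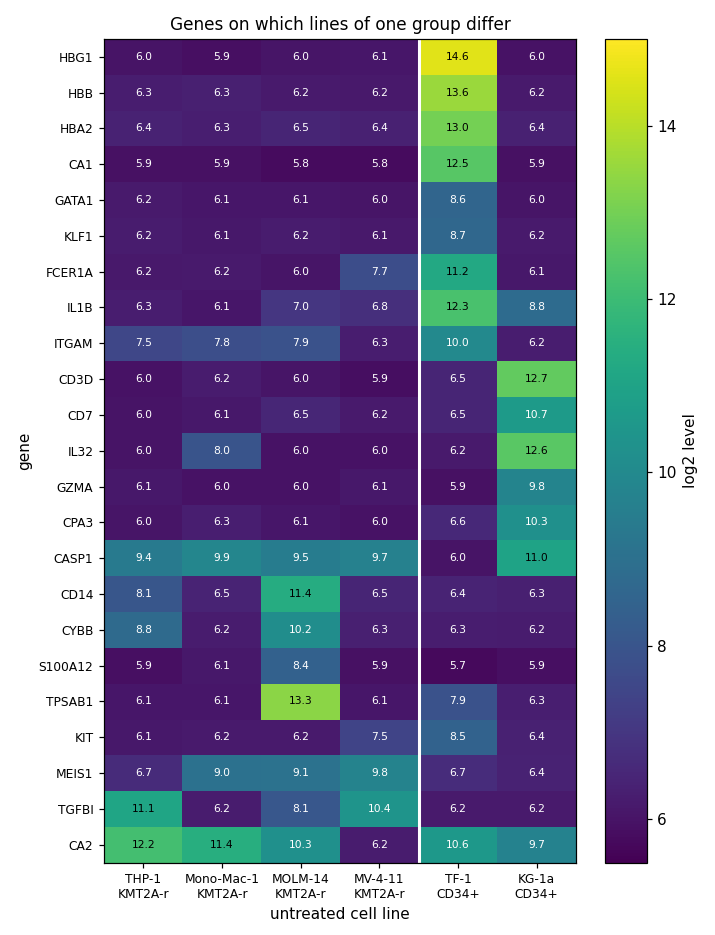
Log2 level (colour and printed value) of 23 listed genes, chosen after their values were seen, in the 6 untreated lines (columns). Globin genes are high in TF-1 alone, CD3D and GZMA in KG-1a alone, and CD14 and CYBB are highest in MOLM-14 among the KMT2A-rearranged lines.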

How the data were processed

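Messenger RNA of 6 AML lines was measured on Illumina HT-12 V4 bead arrays. The authors deposited a table of probe intensity summarised in GenomeStudio without normalization (version not given in the sources used here) and a table of log2 values scaled by the authors, used here as an alternative. The tables used hold neither detection p-values nor control probes, so no probe could be called above background. Precision is limited by the number of arrays.

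Intensities of all 17 arrays were background-corrected (normexp, offset 50), quantile-normalized and log2-transformed in limma 3.58.1 (R 4.3.3). Probes with a mean level over the 17 arrays above the 40th percentile (6.16) were tested, 28394 of 47323. Of these arrays 11 came from KMT2A-rearranged lines, so the filter weighs that group more. Of all probes 30113 had 1 gene symbol in the platform annotation, 8 had several and 17202 had none. The 4 against 2 untreated lines were fitted with lmFit and eBayes, with 4 residual degrees of freedom, and tested at a Benjamini-Hochberg adjusted p under 0.10. The fit was checked on simulated data.

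For lists the brightest tested probe stood for a gene. There were 29 lists of 537 genes, 500 analysed and 434 tested, written from general knowledge. The members, lists, tests and naming rule were chosen with earlier results of these data known. Counts of members that do not overlap are over analysed genes, also those below the filter. Named genes were up to 15 in each direction with the largest difference among called probes that did not overlap, leaving out unnamed and uncharacterised genes, then up to 5 members of each list with the largest gap and its extremes, and a few lineage genes whatever their values. Other members and second probes were named after their values were seen.

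Alternatives were no background correction, an offset of 16, median scaling, the untreated arrays normalized alone, the deposited log2 values, no filter or one at the 60th percentile, the array set as a block, leaving out each line, the 1 uM arrays, the 5 uM arrays (added after seeing the data), the mean of every array of a line, a threshold of 0.05, the methods' t-test, and other ways to choose a gene's probe. Promoters are from RefSeq (GRCh38.p14). The files name no build, slide or scan, so no such batch was tested.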

Additional observations from a re-analysis of the deposited data

Results flagged for a closer look

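In 8 of 144 named probes 1 KMT2A-rearranged line stood far from the other 3 by Dixon's criterion, which flags about 1 group in 20 by chance. MV-4-11 was the low line for AZU1 (11.7) and for the replication factor MCM3 (12.26), and the high line for KIT (7.46, with 7.58 by a second probe). MOLM-14 was the high line for CEBPD (11.25), for the signal transducer STAT5A (9.44) and for NKG7 (11.93), and the low line for the oxidase subunit NCF1 (7.08). Mono-Mac-1 was the high line for HBG2 (6.36), at a level near the floor of the array. For AZU1, CEBPD, STAT5A, NCF1 and MCM3 the groups did not overlap with these lines included, and for KIT, NKG7 and HBG2 they overlapped.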

How the results depend on the processing

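With 4 lines against 2 the count of calls moved with the arrays used more than with the processing. Compared with 177 called probes (84 higher, 93 lower), the calls were 177 (84 and 93) with no background correction, 239 with an offset of 16, 183 with median scaling, 180 with the untreated arrays normalized alone, 224 with the deposited log2 values, 145 with no filter and 232 with the filter at the 60th percentile. The fit with no background correction added 16 to the raw signals. It called the same 177 probes, so it nearly repeats the main fit and is a weak check on that step. With the array set as a block the calls fell to 91 (36 higher, 55 lower), of which 80 were among the 177. With the mean of every array of a line 268 were called (163 lower), with the 1 uM arrays 156 were called lower, and with the 5 uM arrays, added after seeing the data, 137 were called higher. At the 5 uM dose 4712 probes did not overlap in the higher direction, and 389 higher and 293 lower had a gap of at least 1 log2. At an adjusted p under 0.05 there were 91 calls. The methods' t-test gave 2309 at p under 0.05 and 46 after Benjamini-Hochberg adjustment at 0.10.

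Leaving out 1 line gave 65 to 823 calls, 30 to 175 higher and 35 to 648 lower. The lowest counts were 65 without THP-1 and 75 without Mono-Mac-1, against 123 without MOLM-14 and 151 without MV-4-11. Without TF-1 or KG-1a, 581 and 823 were called, and the lone remaining line was assumed to vary like the other group. Without 1 line 4011 to 7673 probes did not overlap in the higher and 3324 to 6740 in the lower direction, with a gap of at least 1 log2 for 252 to 530 and 198 to 950. No paired analysis was possible because the groups hold different cell lines with nothing to pair them by.

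None of the 45 called named probes reversed, and 17 were called in all 17 alternative fits. Of the 28 others, 22 lost the call without THP-1, 20 without Mono-Mac-1, 14 without MOLM-14, 10 without MV-4-11 and 12 with the block. List medians changed sign in 36 of 522 recalculations, most for lists near 0 or carried by TF-1. Precision is limited by 2 lines in a group and by dim probes, for which the offset understates differences.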
